A study of Mus musculus with 13 samples.

Results

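Cyclins, cyclin-dependent kinases (CDKs) and a CDK inhibitor of the step from rest to division were described in the livers of WT and *Nod2*-/- mice. The CDC phosphatase genes *Cdc25b* and *Cdc14a* were described with them. The 10 genes were *Ccnd1*, *Ccnd2*, *Ccne1*, *Ccne2*, *Cdk4*, *Cdk6*, *Cdk2*, *Cdkn1b*, *Cdc25b* and *Cdc14a*, out of 53465 genes in the count table, and all 10 were found there and passed the filter on low counts. They were picked by their role in the cell cycle, with the WT and *Nod2*-/- values of these same livers already known. Their difference between the genotypes is therefore given as a description, and no test of it is used as support. The data were RNA-seq read counts per gene from the livers of 6 WT and 7 *Nod2*-/- male mice on BALB/c, an inbred strain, with 1 library per mouse. Every mouse of both groups had been given DMBA, a carcinogen, and a high-fat diet (HFD), and was sampled at 30 weeks by the labels. *Nod2* codes for an intracellular sensor of bacterial peptidoglycan, and it is lacking in the whole animal in *Nod2*-/- mice. WT mice without DMBA and HFD, or with either alone, are not analysed here, so what the regimen itself did to these genes is outside the comparison. The samples are labelled as cancer and are whole liver, in which fewer cells of a type and less RNA per cell cannot be told apart.

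A resting hepatocyte enters G1, the first phase of the cell cycle, when growth signals raise the D cyclins. D cyclins bind CDK4 and CDK6, E cyclins bind CDK2, and both kinds of complex phosphorylate the retinoblastoma protein so that E2F factors can switch on the genes of DNA synthesis. p27, the product of *Cdkn1b*, holds cyclin E-CDK2 inactive, while CDC25 phosphatases remove inhibitory phosphates from CDKs and CDC14 phosphatases remove phosphates that CDKs have placed on their substrates. In liver, cyclin D1 is known for its rise as hepatocytes regenerate and for its increase in many liver tumors.

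*Cdc25b* and *Cdc14a*, both phosphatase genes, showed the widest difference between the genotypes of the 10, each with a mean 2.29-fold higher in *Nod2*-/- mice. *Ccne2*, which codes for cyclin E2, was the member with the widest difference in the other direction, with a mean of 29.5 normalized counts in *Nod2*-/- mice against 49.8 in WT mice. The other 7 genes had log2 fold changes between -0.12 and 0.48. Of the 10 genes, 7 had a higher and 3 a lower value in *Nod2*-/- mice, with a median log2 fold change of 0.26 beside 0.02 over the 13545 genes tested. *Cdc25b* and *Cdc14a* were past a false discovery rate (FDR) of 5% in edgeR's quasi-likelihood test, in which 1.16% of all tested genes were past it, 0.65% of all with higher values in *Nod2*-/- mice. Because the genes were picked with this contrast in view, nothing is read from that count.

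Promoter sequence is shown for the members that differed most between the genotypes and for *Cdk4* and *Cdk2*, kinases of the D and the E cyclins, with 4 E-boxes and an E2F site. A single E-box was also found for *Cdk6*, whose sequence is not shown. RefSeq entries on GRCm38.p6 matched 7 of the 10 genes, and *Ccnd1*, *Ccnd2* and *Ccne2* had no entry. The 250 bases before each start are written 5′ to 3′ on the strand of the gene, with capitals marking a motif match, counted back from -1 next to the start. *Cdc14a* has 3 entries, and the one beside the upstream end of its gene model is given.
Cdc25b, chr2:131186698-131186947, plus strand: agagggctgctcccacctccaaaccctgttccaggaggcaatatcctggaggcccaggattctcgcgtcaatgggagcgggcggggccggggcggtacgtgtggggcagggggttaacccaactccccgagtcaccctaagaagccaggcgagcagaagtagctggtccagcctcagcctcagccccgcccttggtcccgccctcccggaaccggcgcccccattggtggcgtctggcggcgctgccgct
Cdc14a, chr3:116424073-116424322, minus strand: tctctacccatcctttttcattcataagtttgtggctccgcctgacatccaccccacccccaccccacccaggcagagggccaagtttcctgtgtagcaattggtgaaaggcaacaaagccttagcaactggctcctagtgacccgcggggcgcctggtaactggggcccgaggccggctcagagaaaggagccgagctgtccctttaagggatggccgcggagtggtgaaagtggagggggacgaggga
Cdk4, chr10:127063285-127063534, plus strand: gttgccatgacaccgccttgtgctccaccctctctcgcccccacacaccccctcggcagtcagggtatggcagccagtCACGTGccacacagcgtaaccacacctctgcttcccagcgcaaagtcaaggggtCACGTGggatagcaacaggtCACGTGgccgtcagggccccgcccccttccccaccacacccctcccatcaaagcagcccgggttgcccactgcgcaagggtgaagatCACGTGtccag
Cdk2, chr10:128705052-128705301, minus strand: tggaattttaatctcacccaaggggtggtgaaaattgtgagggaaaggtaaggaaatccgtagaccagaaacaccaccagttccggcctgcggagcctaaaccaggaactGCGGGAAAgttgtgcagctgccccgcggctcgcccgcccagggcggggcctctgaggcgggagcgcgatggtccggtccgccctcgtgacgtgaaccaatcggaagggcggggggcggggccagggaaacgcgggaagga

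Motifs were searched on both strands of these windows. The first was the E-box CACGTG, which factors of the MYC family bind and which 6.02% of 32851 promoters held. The second was the E2F site written as TTTCGCGC, TTTGGCGC, TTTCCCGC or TTTGCCGC, held by 1.86% of promoters. The last was the cell cycle homology region, TTTGAA or TTCGAA, held by 17.1%. *Cdk4* held 4 E-boxes, beginning at -172, -118, -98 and -11, and *Cdk6* held 1, beginning at -220. *Cdk2* held an E2F site from -140 to -133. The windows of *Ccne1*, *Cdkn1b* and *Cdc25b* and the printed window of *Cdc14a* held none of the 3 motifs, and the other windows of *Cdc14a* held the cell cycle homology region. A match is a run of letters and not a measured binding site.

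**Figure D1:**
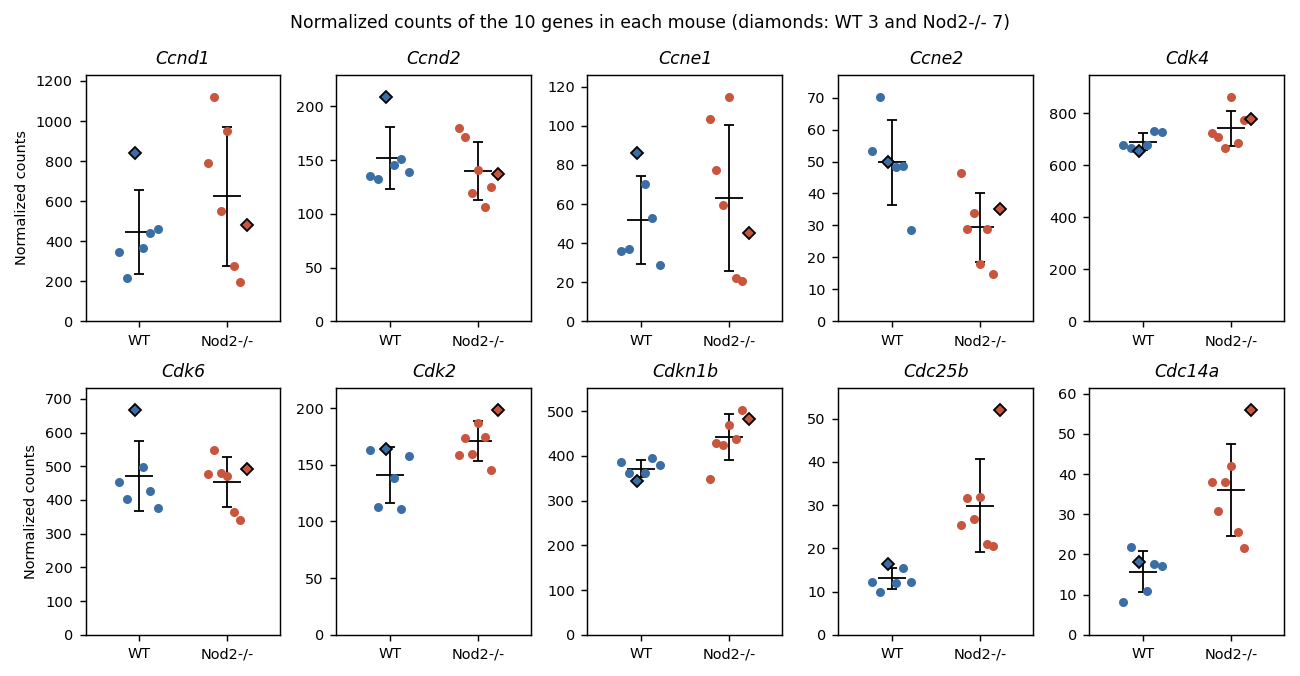
Each panel plots the TMM-normalized read counts of 1 gene (linear axis from 0) for 6 WT and 7 *Nod2*-/- mice; points are mice, bars the mean and SD, and diamonds WT replicate 3 and *Nod2*-/- replicate 7. In *Cdc25b* the highest WT mouse (16.3) lies under the lowest *Nod2*-/- mouse (20.5), while the groups overlap in the other 9 genes.

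*Cdc25b* (ENSMUSG00000027330.16, chr2:131186949-131198497, plus strand, GRCm38) codes for the CDC25 phosphatase that activates cyclin-CDK complexes on the way into mitosis. Its normalized counts, scaled to the mean library size, were 12.3, 9.87, 16.3, 12.1, 15.5 and 12.3 in WT replicates 1 to 6. They were 25.4, 31.7, 26.7, 31.9, 21.1, 20.5 and 51.9 in *Nod2*-/- replicates 1 to 7. All 7 *Nod2*-/- mice were above all 6 WT mice, as was true of 0.753% of the genes tested, and *Nod2*-/- replicate 7 was far above the other 6. The means were 13.04 ± 2.39 (SD, n = 6) and 29.9 ± 10.7 (SD, n = 7), a log2 fold change of 1.19 (standard error, SE, 0.24). Without *Nod2*-/- replicate 7 the log2 fold change was 1.0. The raw counts behind these values were 9 to 18 in WT and 18 to 53 in *Nod2*-/- mice.

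*Cdc14a* (ENSMUSG00000033502.14, chr3:116272553-116424032, minus strand) codes for a dual-specificity phosphatase with targets among CDK substrates. It had 8.20, 21.9, 18.1, 10.96, 17.7 and 17.2 normalized counts in WT replicates 1 to 6. In *Nod2*-/- replicates 1 to 7 it had 38.1, 30.7, 38.0, 41.9, 25.5, 21.6 and 55.9. The groups overlapped by a single pair, since *Nod2*-/- replicate 6 was just below WT replicate 2, and *Nod2*-/- replicate 7 was again the highest mouse. The means were 15.7 ± 5.08 (SD, n = 6) and 36.0 ± 11.4 (SD, n = 7), a log2 fold change of 1.19 (SE 0.27), or 1.05 without *Nod2*-/- replicate 7.

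*Nod2*-/- replicate 7 had the most neutrophil RNA, with 1021 CPM summed over 10 neutrophil markers against 5.55 to 92.1 in the other *Nod2*-/- mice and 3.37 to 9.43 in WT mice. Macrophage and monocyte markers were also highest there (295.8 CPM, against 112.7 to 170.9 in the other *Nod2*-/- mice and 91.5 to 164.4 in WT mice). The neutrophil marker sums were 5.55, 10.04, 21.3, 92.1, 42.4, 28.8 and 1021 CPM in *Nod2*-/- replicates 1 to 7. The counts of *Cdc25b* and *Cdc14a* in these mice are given above in the same order. The part of immune cells in the values of both genes was not tested. Whichever mouse was left out, the log2 fold change stayed between 1.0 and 1.26 for *Cdc25b* and between 1.05 and 1.30 for *Cdc14a*. The call at 5% FDR held in 7 of these 13 fits for *Cdc25b* and in 3 for *Cdc14a*. In these fits 41 to 1156 of all genes were past it.

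*Ccnd1* (ENSMUSG00000070348.5, chr7:144929931-144939925, minus strand) codes for cyclin D1, the D cyclin that links growth signals to CDK4 and CDK6. It had 348.5, 217, 839.6, 367, 442 and 459 normalized counts in WT replicates 1 to 6 and 790, 1120, 550.6, 952, 274, 196 and 483 in *Nod2*-/- replicates 1 to 7. Both the lowest and the highest mouse were *Nod2*-/-, and WT replicate 3 stood close to the upper *Nod2*-/- mice. The highest mouse was 5.72 times the lowest among *Nod2*-/- mice and 3.87 times among WT mice. The means were 445.6 ± 211 (SD, n = 6) and 623.8 ± 345 (SD, n = 7), a log2 fold change of 0.48 (SE 0.38), which was 0.75 without WT replicate 3 and 0.28 without *Nod2*-/- replicate 2.

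*Ccnd2* (ENSMUSG00000000184.12, chr6:127125162-127152193, minus strand), which codes for cyclin D2, ranged over 132.7 to 208.8 normalized counts in WT (median 142.5) and 106.4 to 179.8 in *Nod2*-/- mice (median 137.2). WT replicate 3 was again the highest mouse. This gave a log2 fold change of -0.12 (SE 0.15), and -0.02 without that mouse.

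*Ccne1* (ENSMUSG00000002068.16, chr7:38097984-38107534, minus strand) codes for cyclin E1, a partner of CDK2 at the start of DNA synthesis. It had 35.9, 37.3, 85.9, 70.2, 53.0 and 28.7 normalized counts in WT replicates 1 to 6. In *Nod2*-/- replicates 1 to 7 it had 104, 77.3, 59.6, 115, 21.98, 20.5 and 45.1. The range was wider in *Nod2*-/- mice, where the highest mouse was 5.60 times the lowest, and 2 of these mice lay above and 2 below every WT mouse. Its log2 fold change was 0.29 (SE 0.40), with 0.08 without *Nod2*-/- replicate 4 and 0.48 without WT replicate 3.

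*Ccne2* (ENSMUSG00000028212.16, chr4:11191351-11204779, plus strand), the gene of cyclin E2, was at 53.3, 70.2, 49.7, 48.2, 48.6 and 28.7 normalized counts in WT replicates 1 to 6. It was at 46.5, 28.8, 33.9, 17.95, 29.0, 14.8 and 35.3 in *Nod2*-/- replicates 1 to 7. Of the WT mice 5 lay above all *Nod2*-/- mice, and WT replicate 6 lay among the *Nod2*-/- mice. The log2 fold change was -0.75 (SE 0.26) and stayed between -0.90 and -0.63 whichever mouse was left out. Cyclin E1 and cyclin E2 had mean differences of opposite sign, but the difference between their changes was not tested.

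*Cdk4* (ENSMUSG00000006728.12, chr10:127063534-127067920, plus strand), the kinase of D cyclins, had 656.1 to 732.5 normalized counts in WT (median 676.5) and 665.7 to 862.6 in *Nod2*-/- mice (median 723.4). The highest mouse was 1.12 times the lowest in WT and 1.30 times in *Nod2*-/- mice, the narrowest ranges of the 10 genes. Its log2 fold change was 0.11 (SE 0.07). *Cdk6* (ENSMUSG00000040274.11, chr5:3341485-3531008, plus strand), the other kinase of D cyclins, had 376.6 to 666.1 in WT (median 439.8) and 339.1 to 549.2 in *Nod2*-/- mice (median 477.0). Its log2 fold change was -0.05 (SE 0.14) and became 0.06 without WT replicate 3, its highest mouse.

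*Cdk2* (ENSMUSG00000025358.16, chr10:128697939-128705031, minus strand), the kinase of E cyclins, had 110.5 to 163.6 normalized counts in WT (median 148.1) and 145.6 to 198.0 in *Nod2*-/- mice (median 173.5). Of the 7 *Nod2*-/- mice 4 lay above every WT mouse, and the log2 fold change was 0.27 (SE 0.12). *Cdkn1b* (ENSMUSG00000003031.14, chr6:134920401-134925513, plus strand), the gene of the inhibitor p27, had 386, 361, 343.4, 361, 395.5 and 380 normalized counts in WT replicates 1 to 6. It had 347.9, 428, 424, 470, 436.9, 501.8 and 483 in *Nod2*-/- replicates 1 to 7. All *Nod2*-/- mice except replicate 1 lay above every WT mouse. The difference was small beside its level, with means of 371.1 ± 19.4 (SD, n = 6) and 441.7 ± 50.7 (SD, n = 7) and a log2 fold change of 0.25 (SE 0.09).

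Some of these genes overlap a gene on the other strand, and whether the counting used strand is not stated, so reads in shared exons could have been counted for either gene. *Cdk4* shares 19.7% of its exon bases with *Tspan31*, which had 5799 normalized counts on average. *Ccne2* shares 17.4% with *Ints8*, which had 400.6 normalized counts against 38.8 for *Ccne2* itself. *Ccnd1* shares 23.4% with *LTO1* (253.6 normalized counts). The log2 fold changes of these neighbours were 0.19 for *Tspan31*, -0.28 for *Ints8* and -0.40 for *LTO1*. For *Cdc25b* the share was 2.47%, with *Spef1* (15.5 normalized counts, log2 fold change 0.14), and for *Cdc14a* 0.549%, with a gene that had 0 counts.

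**Figure D2:**
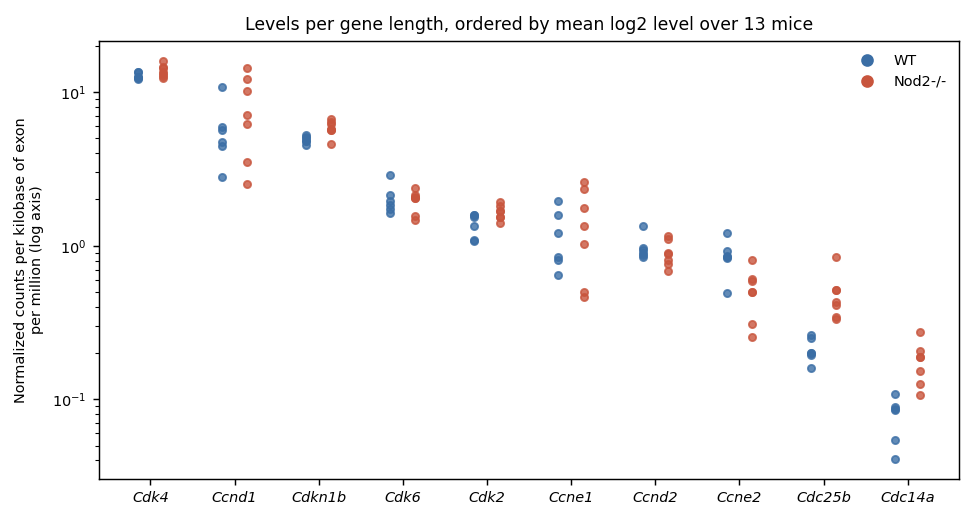
Levels of the 10 genes on a log axis, in CPM per kilobase of exon, with 1 point per mouse and genes ordered by their mean log2 level. *Cdk4* lies between 12.2 and 16.01 in all 13 mice and *Cdc14a* between 0.0405 and 0.276.

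How the 10 genes rank by level was not used to choose them. In CPM (counts per 1000000 reads on genes) per kilobase of exon, the mean over 13 mice was 13.3 for *Cdk4*, 6.94 for *Ccnd1*, 5.42 for *Cdkn1b*, 1.99 for *Cdk6*, 1.52 for *Cdk2* and 1.31 for *Ccne1*. It was 0.933 for *Ccnd2*, 0.670 for *Ccne2*, 0.358 for *Cdc25b* and 0.131 for *Cdc14a*. By group means *Cdk4* was the most abundant of the 10 transcripts per length in both genotypes. The 2 genes with the widest genotype difference were the least abundant. In *Nod2*-/- mice, however, the mean of *Cdc25b* (0.484) was close to that of *Ccne2* (0.508). Of the 9 pairs of neighbours in this order, 6 differed in a two-sided exact sign-flip permutation test over the 13 mice after Benjamini-Hochberg adjustment over the pairs. *Cdk4* was above *Ccnd1* in 12 of 13 mice by a mean of 1.12 on the log2 scale (exact permutation test, adjusted p = 0.00147). *Cdkn1b* was above *Cdk6* in 13 of 13 mice by 1.41 (exact permutation test, adjusted p = 0.00110).

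Lower in the order, *Cdk6* was above *Cdk2* in 12 of 13 mice, by 0.36 (exact permutation test, adjusted p = 0.00220). *Ccnd2* was above *Ccne2* in 11 of 13 mice, by 0.49 (adjusted p = 0.00835), *Ccne2* was above *Cdc25b* in 9 of 13, by 0.76 (adjusted p = 0.0216), and *Cdc25b* was above *Cdc14a* in 13 of 13, by 0.94 (adjusted p = 0.00110, exact permutation tests). *Ccnd1* and *Cdkn1b* did not differ beyond their spread (difference 0.17, exact permutation test, adjusted p = 0.472), and nor did *Ccne1* from *Cdk2* (0.35) or *Ccnd2* (0.30, adjusted p = 0.126 for both by exact permutation tests). The order was not the same in both genotypes for each of these pairs. *Ccne2* was above *Cdc25b* in 6 of 6 WT mice (mean log2 difference 1.6) but in 3 of 7 *Nod2*-/- mice (0.04), so their order rests on the WT mice. *Ccnd2* was above *Ccne2* in 4 of 6 WT mice (0.19) and in 7 of 7 *Nod2*-/- mice (0.76). With the longest transcript in place of all exons as gene length, *Cdk2* moved above *Cdk6*. *Cdc25b* stayed above *Cdc14a* in mean log2 level, but its 13 of 13 mice rest on the exon length. *Cdc14a* has 12205 exon bases and a longest transcript of 4577 bases, and *Cdc25b* has 3728 and 3089. In normalized counts, not divided by length, *Cdc14a* had the higher mean in WT (15.67 against 13.04) and in *Nod2*-/- mice (35.95 against 29.89).

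Within genotypes, *Ccnd1*, *Ccne1* and *Cdk6* varied together from mouse to mouse. Log2 CPM of each gene was set against the mean of its genotype, and Pearson's r was computed for the 45 pairs of the 10 genes over 13 mice. For *Ccnd1* and *Ccne1* r was 0.85 (permutation test, adjusted p = 0.0306) and Spearman's rho 0.67 (adjusted p = 0.247). For *Ccne1* and *Cdk6* r was 0.80 (permutation test, adjusted p = 0.0306) and rho 0.56 (adjusted p = 0.348). For *Ccnd1* and *Cdk6* r was 0.80 (permutation test, adjusted p = 0.0363) and rho 0.49 (adjusted p = 0.371). These 3 pairs were past 5% by Pearson's r after adjustment over the 45 pairs, and 0 pairs were past it by both measures.

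In a further fit the 2 mice farthest from the median of the first gene of a pair were left out. Without *Nod2*-/- replicates 2 and 6, r was 0.80 for *Ccnd1* with *Ccne1* and 0.69 for *Ccnd1* with *Cdk6*. Without *Nod2*-/- replicates 5 and 6, it was 0.67 for *Ccne1* with *Cdk6*. WT replicate 3, the highest mouse for *Cdk6*, stayed in for all of these pairs, so these values do not show r without that mouse. Within WT mice alone r was 0.56, 0.70 and 0.88 for these pairs (exact permutation tests, unadjusted p = 0.253, 0.149 and 0.0111). Within *Nod2*-/- mice alone it was 0.95, 0.91 and 0.82 (exact permutation tests, unadjusted p = 0.00357, 0.00833 and 0.0343). *Ccnd1* and *Ccnd2* had r = 0.78 and rho = 0.76 and missed the threshold (permutation test, adjusted p = 0.0561 and 0.212). *Cdc25b* and *Cdc14a*, which shared the direction and size of their genotype difference, had r = 0.55 within genotypes (permutation test, adjusted p = 0.269), and 0.04 among WT mice against 0.87 among *Nod2*-/- mice (exact permutation tests, unadjusted p = 0.931 and 0.0115). Whether the genotypes differed in this r was not tested.

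**Figure D3:**
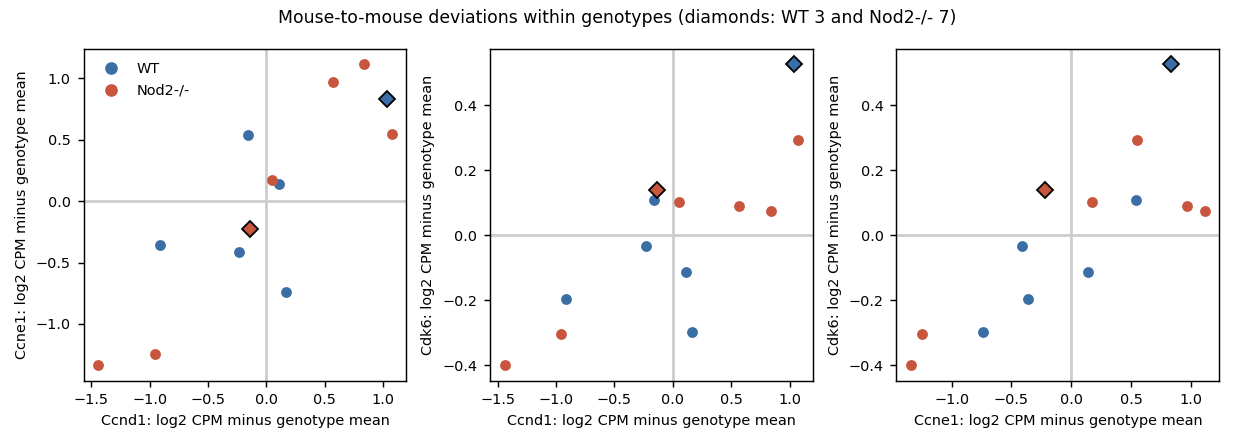
Each point is a mouse, plotted by the deviation of its log2 CPM from the mean of its genotype, for *Ccnd1* and *Ccne1* (left), *Ccnd1* and *Cdk6* (middle) and *Ccne1* and *Cdk6* (right); r is 0.85, 0.80 and 0.80. *Nod2*-/- replicates 5 and 6 lie at the lower left in all 3 panels, and WT replicate 3 (diamond) at the upper right.

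In WT mice the highest *Ccnd1* was in the mouse with the most RNA of cholangiocytes, the cells of bile ducts. In *Nod2*-/- mice the 2 highest for *Ccnd1* were also the 2 highest for that RNA, in reverse order. Cholangiocyte markers, which hepatic progenitor cells share, summed to 215.8 CPM in WT replicate 3 against 35.8 to 124 in the other WT mice. They summed to 297 and 401.8 CPM in *Nod2*-/- replicates 2 and 4, the mice with the highest *Ccnd1* of that group, and to 107.4 to 225.5 in the other *Nod2*-/- mice. The log2 ratio of the group means of this sum, *Nod2*-/- over WT, was 1.27. Of its 5 tested markers 3 were higher in *Nod2*-/- mice. Endothelial markers (208.3 CPM) and stellate cell and fibroblast markers (421.7 CPM) were also highest of the WT mice in WT replicate 3. The part of these cells in the values of *Ccnd1*, *Ccne1* and *Cdk6* was not tested. Hepatocyte markers were at 84960 to 176600 CPM in all mice and thus marked every library as liver.

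By the same measure the genes most like each member were found among 11507 genes, 3 for each member. For *Ccnd1* they were *Gm20186*, *Tspan15* and *Mtcl1* (r = 0.932, 0.931 and 0.927). For *Ccnd2* they were *Pkhd1*, *Cald1* and *Zfp704* (0.929, 0.919 and 0.917), and for *Ccne1* *Dhx32*, *Cc2d2a* and *Inip* (0.931, 0.912 and 0.902). *Ccne2* was most like *Ugt1a1*, *Lect2* and *Gstm6* (0.915, 0.895 and 0.884). The neighbours were not sorted by cell type, and the cell source of *Ccnd2* and *Ccne2* was not tested. *Cdk6* was most like *Ctdspl2*, *Zc3h11a* and *Tyk2* (0.960, 0.959 and 0.951), *Cdk4* like *Stx4a*, *Arfgap2* and *Eef2kmt* (0.935, 0.930 and 0.928), and *Cdk2* like *Gabbr1*, *4933427D14Rik* and *Mfsd10* (0.889, 0.873 and 0.848). *Cdkn1b* was most like *Baiap2*, *Ddx59* and *Zscan21* (0.895, 0.893 and 0.889). *Cdc25b* was most like *Birc3*, *Cd55* and *Zdhhc24* (0.922, 0.919 and 0.905), and *Cdc14a* like *Bmi1*, *Acvrl1* and *Actr3* (0.833, 0.828 and 0.814). All points are libraries of the same 13 mice, and ranking by Spearman's rho kept at most 1 of the 3 genes for any member. When 1 mouse was left out, 7 of the 10 members kept 0 of their 3 genes in at least 1 fit, and *Ccnd2*, *Cdk4* and *Cdk6* kept at least 1 in every fit.

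The rest of the pathway was read from 8 lists with 94 genes, none of them among the 10. The lists were drawn up with earlier results of these data known, so their p-values are given as a description. Of the 94 genes 79 could be tested, with 46 higher and 33 lower in *Nod2*-/- mice and a median log2 fold change of 0.04, beside 0.02 over all genes. Over all genes tested 52.3% were higher in *Nod2*-/- mice. In edgeR, adjusted over all 13545 genes, 2 were past 5% FDR, both lower in *Nod2*-/- mice, where 0.509% of all genes were. At an unadjusted p under 0.05 there were 19 of the 79, beside 23.1% of all genes tested. DESeq2 placed 12 of the list genes past 5% FDR, beside 8.41% of the 14370 genes it tested. Among these were *E2f8*, *Wee1*, *Cdkn2c*, *E2f2*, *Ccna2*, *Nusap1* and *Mki67*. The edgeR test placed 7 past it without WT replicate 3, with 8.49% of all genes past it in that fit. With both WT replicate 3 and *Nod2*-/- replicate 7 left out it placed 5 past it, beside 4.23% of all genes.

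**Figure D4:**
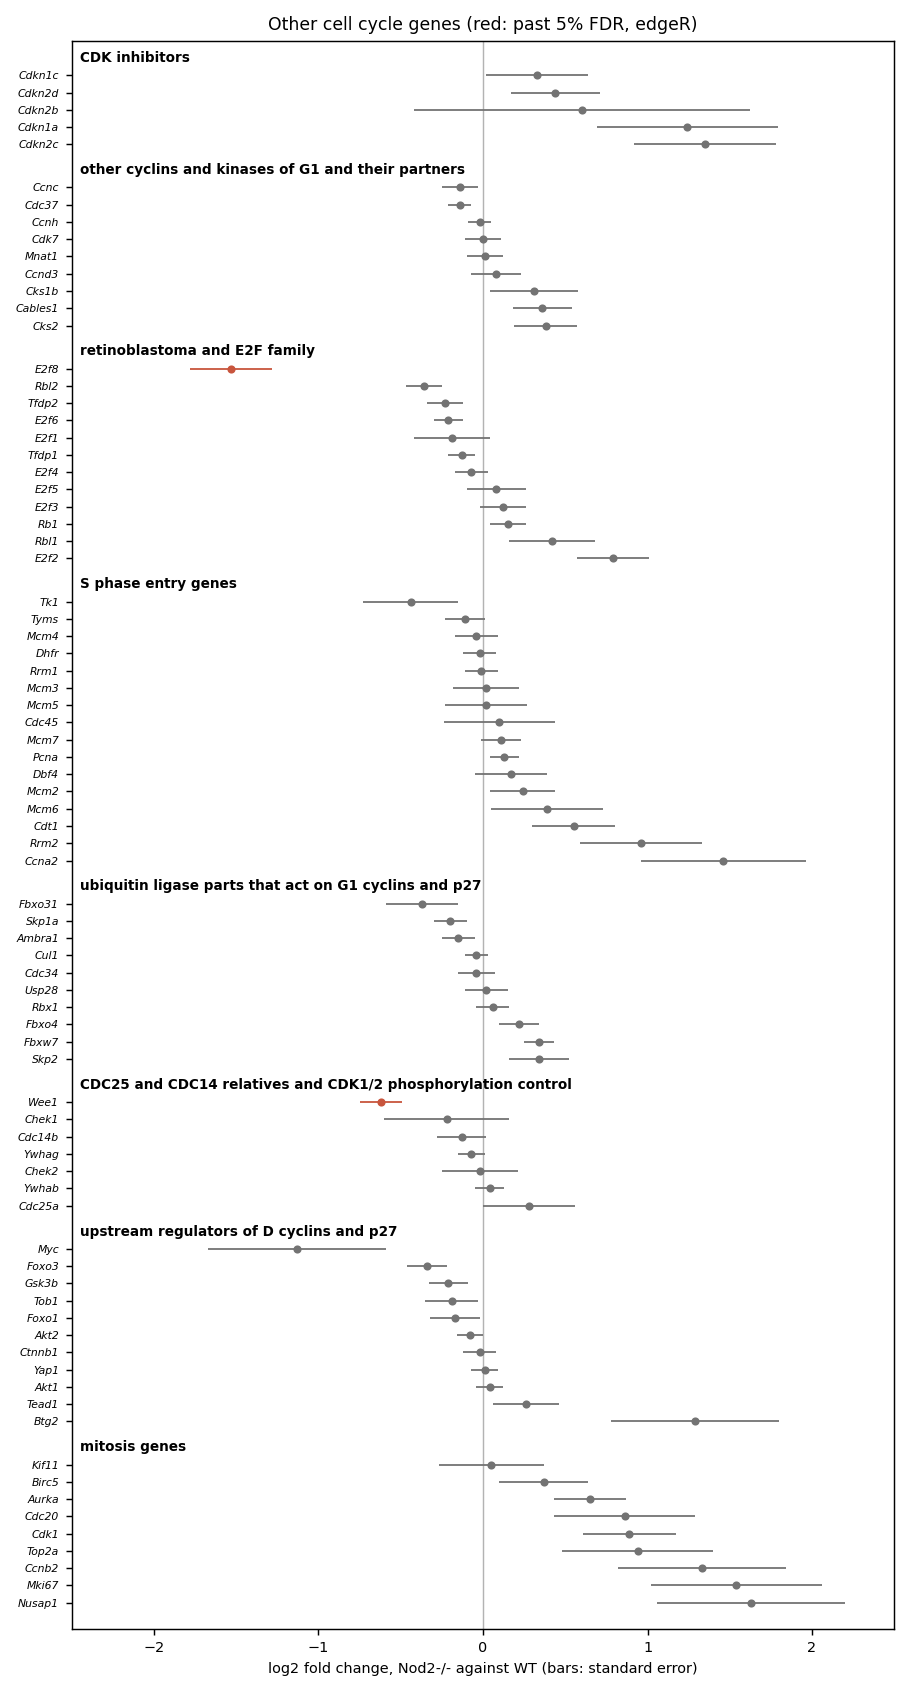
Log2 fold changes of *Nod2*-/- against WT mice (points, with standard errors as bars) for the 79 tested genes of the 8 lists, in the order of the lists; red marks genes past 5% FDR in edgeR. Only *E2f8* (-1.53) and *Wee1* (-0.62) are red, and all 9 tested mitosis genes and all 5 tested CDK inhibitors lie right of 0. The share of all tested genes with a positive value is 52.3%.

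*E2f8* (chr7:48866429-48881596, minus strand) codes for an atypical E2F factor that represses E2F target genes and that hepatocytes use as they become polyploid. It fell to about 0.347 times its WT level, the lowest ratio of the 79 genes. WT replicates 1 to 6 had 160, 237, 254, 248.9, 172 and 273.5 normalized counts, and *Nod2*-/- replicates 1 to 7 had 77.2, 72.4, 70.9, 31.9, 116, 118 and 57.8. The groups did not overlap, with *Nod2*-/- mice lower, as was true of 0.687% of the genes tested. The means were 224.2 ± 46.7 (SD, n = 6) and 77.8 ± 30.8 (SD, n = 7). The log2 fold change was -1.53 (SE 0.25, edgeR adjusted p = 0.00828), and *E2f8* was past 5% FDR in all 13 fits that left out 1 mouse. *E2f8* shares 11.2% of its exon bases with *Gm2788* on the other strand (740.3 normalized counts, log2 fold change -0.85), so its counts are uncertain in the same way as those of *Ccne2*. The 250 bases before its start held 1 match to the cell cycle homology region, TTCAAA from -20 to -15, printed in capitals.
E2f8, chr7:48881597-48881846, minus strand: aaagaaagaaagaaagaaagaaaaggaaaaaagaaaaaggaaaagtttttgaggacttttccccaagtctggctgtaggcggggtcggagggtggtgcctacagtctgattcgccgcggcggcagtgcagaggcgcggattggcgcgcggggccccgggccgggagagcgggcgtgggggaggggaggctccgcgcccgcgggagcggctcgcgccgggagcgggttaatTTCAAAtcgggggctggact

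*Wee1* (chr7:110122046-110143286, plus strand) codes for the kinase that places the inhibitory phosphate which CDC25 phosphatases remove. It had 486.9, 497.8, 572.1, 467.0, 519.3 and 393.0 normalized counts in WT replicates 1 to 6. In *Nod2*-/- replicates 1 to 7 it had 330.0, 343.0, 437.6, 267.3, 254.0, 345.9 and 244.0. All *Nod2*-/- mice except replicate 3 were below every WT mouse. The log2 fold change was -0.62 (SE 0.13, edgeR adjusted p = 0.0422). Leaving out any of WT replicates 1, 2, 4 and 5 or *Nod2*-/- replicates 4 to 7 ended its call at 5% FDR, with log2 fold changes between -0.65 and -0.57 and edgeR adjusted p between 0.0527 and 0.107.

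**Figure D5:**
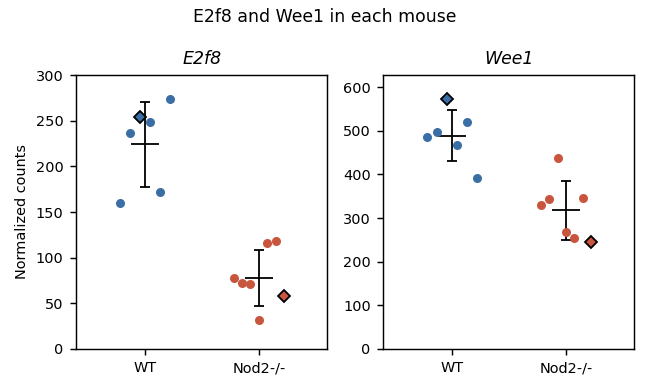
Normalized counts (linear axis from 0) of *E2f8* and *Wee1* in 6 WT and 7 *Nod2*-/- mice; points are mice, bars the mean and SD, and diamonds WT replicate 3 and *Nod2*-/- replicate 7. For *E2f8* the lowest WT mouse (160) lies above the highest *Nod2*-/- mouse (118), and for *Wee1* a single *Nod2*-/- mouse (437.6) reaches into the WT range.

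Of the 6 listed CDK inhibitors besides p27, 5 could be tested. All 5 had positive log2 fold changes (median 0.60), but 0 were past 5% FDR in edgeR, and 2 had an unadjusted p under 0.05. Over all tested genes 52.3% had positive log2 fold changes and 23.1% an unadjusted p under 0.05. *Cdkn2c*, which codes for p18 and inhibits CDK4 and CDK6, had 10.2 to 29.8 normalized counts in WT (median 19.0) and 7.96 to 105.7 in *Nod2*-/- mice (median 43.6), with a log2 fold change of 1.35 (SE 0.43, edgeR adjusted p = 0.0955). *Cdkn1a*, the gene of p21, had 34.9 to 291.9 in WT (median 56.1) and 57.5 to 607.4 in *Nod2*-/- mice (median 256), with a log2 fold change of 1.24 (SE 0.55, edgeR adjusted p = 0.197). The value of *Cdkn1a* was 1.82 without WT replicate 3 (edgeR adjusted p = 0.0461), 0.87 without *Nod2*-/- replicate 5 (edgeR adjusted p = 0.336) and 1.83 without both WT replicate 3 and *Nod2*-/- replicate 7 (edgeR adjusted p = 0.0719). *Cdkn2a* did not pass the filter on low counts.

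Among the other cyclins, kinases and partners of G1, 9 of 10 genes were tested, 5 higher and 4 lower, with a median log2 fold change of 0.01 and 0 past 5% FDR (1 at an unadjusted p under 0.05). The widest were *Cks2*, a small CDK-binding protein (0.38, SE 0.19), and *Cables1* (0.36, SE 0.18). *Cdk3-ps* did not pass the filter. *Ccnd3*, the remaining D cyclin, had a log2 fold change of 0.08 (SE 0.15).

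Of the retinoblastoma and E2F family, 12 of 13 genes were tested, 5 higher and 7 lower (median -0.10), with *E2f8* the single one past 5% FDR and 4 at an unadjusted p under 0.05. *E2f2*, an activating E2F, had 23.0 to 40.9 normalized counts in WT and 34.9 to 82.3 in *Nod2*-/- mice (log2 fold change 0.79, SE 0.22, edgeR adjusted p = 0.0723). That p was 0.0461 without WT replicate 3 and 0.138 without *Nod2*-/- replicate 7 in edgeR. *Rbl2*, the gene of p130, which holds resting cells out of the cycle, had a log2 fold change of -0.36 (SE 0.11, edgeR adjusted p = 0.0959). *Rbl2* lies 2.38 Mb from *Nod2* on chromosome 8. *E2f7* did not pass the filter, with 12.5 normalized counts on average in WT mice and 8.08 in *Nod2*-/- mice.

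Of 19 S phase entry genes 16 were tested, 11 higher and 5 lower (median 0.11), with 0 past 5% FDR and 3 at an unadjusted p under 0.05. *Ccna2*, the gene of cyclin A2, had a log2 fold change of 1.46 (SE 0.50, edgeR adjusted p = 0.113), from 5.48 to 24.4 normalized counts in WT and 9.10 to 74.5 in *Nod2*-/- mice. *Rrm2*, a subunit of ribonucleotide reductase, had 0.96 (SE 0.37), or 0.55 without *Nod2*-/- replicate 7. *Cdc6*, *Orc1* and *Cdc7* did not pass the filter.

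Mitosis genes had the highest median of the 8 lists, 0.89. All 9 tested genes of 14 were higher in *Nod2*-/- mice, 5 at an unadjusted p under 0.05 and 0 past 5% FDR in edgeR. Over all tested genes 52.3% were higher and 23.1% had an unadjusted p under 0.05. The 9 genes were read from the same mice and are not independent, with *Nod2*-/- replicate 7 or 2 the highest mouse in each. *Nusap1*, a spindle protein gene, had a log2 fold change of 1.63 (SE 0.57, edgeR adjusted p = 0.117) and *Mki67*, the gene of the proliferation marker Ki-67, 1.54 (SE 0.52, edgeR adjusted p = 0.108). With the same mice DESeq2 gave adjusted p = 0.0494 and 0.0279, in a fit with 8.41% of all genes past 5% FDR. The voom fit gave adjusted p = 0.0479 and 0.0406, with 843 genes past it. *Mki67* had 8.77 to 88.6 normalized counts in WT (median 25.0) and 27.3 to 191 in *Nod2*-/- mice (median 65.0). WT replicate 3 held the highest WT value of both, and without it the log2 fold changes were 2.29 and 2.11 (edgeR adjusted p = 0.0319 and 0.0265), in the fit in which 8.49% of all genes were past 5% FDR. Without *Nod2*-/- replicate 7 they were 1.16 and 1.29 (edgeR adjusted p = 0.242 and 0.210), and with both mice left out 1.83 and 1.88 (edgeR adjusted p = 0.0396 and 0.0432). *Ccnb1*, *Aurkb*, *Bub1*, *Cenpe* and *Ttk* did not pass the filter.

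The parts of ubiquitin ligases that degrade G1 cyclins and p27 were all tested, 5 higher and 5 lower, with a median of -0.01, 0 past 5% FDR and 1 at an unadjusted p under 0.05. The widest were *Fbxo31* (-0.37, SE 0.22) and *Skp2*, the subunit that recognizes p27 (0.34, SE 0.18). *Fbxw7*, the subunit that recognizes cyclin E, had the same log2 fold change with a smaller error (0.34, SE 0.09, edgeR adjusted p = 0.0723), and 6 of 7 *Nod2*-/- mice were above every WT mouse. Of the relatives of CDC25 and CDC14 and the genes that control CDK phosphorylation, 7 of 10 were tested, 2 higher and 5 lower, with *Wee1* the 1 past 5% FDR. *Cdc25a*, a relative of *Cdc25b*, had a log2 fold change of 0.28 (SE 0.28) that became -0.09 without *Nod2*-/- replicate 7, its highest mouse. *Cdc14b* had -0.13 (SE 0.15). *Cdc25c*, *Pkmyt1* and *Plk1* did not pass the filter.

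Of the regulators upstream of D cyclins and p27, 11 of 12 were tested, 4 higher and 7 lower (median -0.08), with 0 past 5% FDR and 2 at an unadjusted p under 0.05. *Btg2*, an antiproliferative gene, had a log2 fold change of 1.29 (SE 0.51, edgeR adjusted p = 0.152). It was 1.82 without WT replicate 3 (edgeR adjusted p = 0.0348) and 0.90 without *Nod2*-/- replicate 4, its highest mouse (edgeR adjusted p = 0.311). *Myc* had -1.13 (SE 0.54, edgeR adjusted p = 0.220), with 59.2 to 560.1 normalized counts in WT and 41.2 to 249.2 in *Nod2*-/- mice. It became -0.65 without WT replicate 5. *Foxm1* did not pass the filter. The 15 list genes below the filter were compared by two-sided exact permutation tests, with 12 means higher in *Nod2*-/- mice. *Plk1*, *Pkmyt1* and *Bub1* had p = 0.00583, 0.0157 and 0.0420 (exact permutation tests), and 0 were past 5% after Benjamini-Hochberg adjustment over the 15 genes.

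Depth was 14886273 to 20579984 reads counted on genes in WT and 13824780 to 19391431 in *Nod2*-/- mice. *Nod2* had at most 4 counts in any WT and 6 in any *Nod2*-/- mouse, so its transcript could not check the genotype labels at this depth. Lung epithelium markers, foreign to liver, were present at 13.5 to 196.4 CPM in WT and 2.74 to 32.0 CPM in *Nod2*-/- mice. Erythroid markers reached 1154 CPM in *Nod2*-/- replicate 7, against 306.0 to 523.0 CPM in WT mice. T cell markers were at 2.61 to 10.2 CPM and B and plasma cell markers at 11.2 to 22.7 CPM over all mice, and the part of these cells in the values of the 10 genes was not tested.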

How the data were processed

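Livers of 6 WT and 7 *Nod2*-/- mice were sequenced, grouped by the genotype in the labels. Libraries were strand-specific, from polyadenylated RNA per the labels. Trimming by the authors used Trimmomatic 0.33 and mapping used TopHat2 2.1.1 on GRCm38, and the deposited values are whole-number counts per gene, without normalization. The counting program and its use of strand and of reads with several positions are not given in the sources used here. The labels give 30 weeks of diet, and the study's methods a slightly longer time. Symbols, positions and exon lengths came from a GENCODE annotation of GRCm38 that held 53274 of 53465 genes, and 1 entry without an identifier was left out.

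After filterByExpr, 13545 genes (99.9% of counts) went into edgeR 4.0.16 under R 4.3.3 (TMM, quasi-likelihood, two-sided, no covariate, Benjamini-Hochberg over all of them). Correlations used 100000 permutations and levels a pseudocount of 0.1 before the log2. Single genes used all 1716 splits of the mice, and order all 8192 sign flips (smallest p 0.000244). Named list genes are those past 5% FDR, the 2 with the widest log2 fold change per list and those below the filter. *Rbl2*, *Ccnd3*, *Cdc14b* and *Fbxw7* were named after their values were seen. The alternatives were DESeq2 1.42.0, voomWithQualityWeights of limma 3.58.1, RLE, other filters, the replicate number as a block and leaving out each mouse. Scripts were tested on simulated data. The 10 genes and the lists were chosen with earlier results of these data known. Library pairs within a genotype all differed by more than sampling noise. P-values measure the spread between these mice.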

Additional observations from a re-analysis of the deposited data

Results flagged for a closer look

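Within each genotype the highest and lowest mouse were checked for the 10 genes, 16 list genes (those past 5% FDR or with the widest change of their list) and 10 marker lists. Dixon's test was used at its 95% critical value, which flags about 1 in 20 groups by chance where values are normally distributed. It was run on counts and CPM without a log transform, so the share flagged cannot be set against that rate. Of 72 groups, 15 had such a mouse, and all 15 were the highest. *Nod2*-/- replicate 7 was this mouse for *Cdc25b* (51.9 normalized counts, next 31.9), *Rrm2* (63.7, next 29.7), *Cdc25a* (218.5, next 88.2) and *Nusap1* (54.9, next 25.8), and for the neutrophil (1021 CPM, next 92.1) and macrophage and monocyte markers (295.8 CPM, next 170.9). WT replicate 3 was it for *Ccnd2* (208.8 normalized counts, next 151.4), *Ccna2* (24.4, next 12.3), *Nusap1* (18.1, next 5.48) and *Mki67* (88.6, next 34.0), and for the endothelial (208.3 CPM, next 168.9) and stellate cell and fibroblast markers (421.7 CPM, next 270.1). *Nod2*-/- replicate 4 was highest for *Btg2* (1752 normalized counts, next 809.5) and the hepatocyte markers (176600 CPM, next 119500), and *Nod2*-/- replicate 6 for *Myc* (249.2 normalized counts, next 125.7). Of the 10 genes, *Cdc25b* and *Ccnd2* were among these.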

How the results depend on the processing

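Over all genes 157 were past 5% FDR, 1209 with DESeq2, 843 with voom, 35 with the replicate block, 567 without both WT 3 and *Nod2*-/- 7 (chosen after seeing the data), and 41 to 1156 when 1 mouse was left out. Of the 10 genes 2 were past it, 3 with DESeq2 (*Ccne2* beside *Cdc25b* and *Cdc14a*), where 8.41% of tested genes were, and 2 with voom. There were 0 with no filter on low counts, with a minimum of 10 counts per mouse, which itself removed both genes, and with the replicate block, and 0 to 2 when 1 mouse was left out. Of the list genes 2 were past it, 12 with DESeq2, 7 with voom, 0 with the replicate block, 5 without both of the mice named above, and 1 to 7 when 1 mouse was left out. With the block, the log2 fold change of *E2f8* was -1.52 (adjusted p = 0.0746 by edgeR), of *Wee1* -0.58 (adjusted p = 0.101 by edgeR), of *Cdc25b* 0.99 and of *Cdc14a* 1.05. Equal replicate numbers did not pair the mice: their correlations lay between -0.302 and 0.304, and 0 of 6 WT mice were closest to their own number. The log2 fold change of *Cdk6* changed sign in 4 of 21 alternatives and that of *Cdc25a* in 2, and the signs of the other 9 of the 10 genes held. In the order of levels 6 pairs of neighbours were past 5%, and 6 or 7 in every alternative (7 without *Nod2*-/- replicate 6). The cause of these changes was not tested. Depth limits *Cdc25b* and *Cdc14a*, which rest on 8 to 57 raw counts per mouse.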
